A study of Nasonia vitripennis with 51 samples.

Results

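Clusters of methylated CpGs on the unplaced scaffolds of Nasonia vitripennis, a parasitoid wasp, were described across tissues, exposure regimes and harvest times. A CpG counted as methylated when it had reads in all 18 sucrose samples and the mean over them of methylated over total reads was at least 50%. A cluster was a run of 3 or more such CpGs on 1 sequence, with at most 500 bp between neighbouring methylated CpGs. Every sequence other than chromosomes 1 to 5 was taken as an unplaced scaffold, an assembled sequence not anchored to a chromosome. The rule found 4180 member CpGs in 674 clusters, out of 4150376 CpGs in the table, and on chromosomes 1 to 5 the same rule found 9101 CpGs in 1389 clusters. The members were chosen by their levels in the sucrose samples, so levels in those samples are given as a description without a test, and all tests used the 33 samples exposed to 5-aza-2'-deoxycytidine (5-aza-dC).

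Whole-genome bisulphite sequencing covered 51 pools of 10 females each of AsymC, a wild-type laboratory strain that had been cured of the bacterium Wolbachia. The females fed on 20% sucrose with 10 µM 5-aza-dC for 48 h (17 samples), on the same mixture for 24 h (16 samples) or on 20% sucrose alone for 24 h (18 samples). They were collected 0, 24 or 48 h after the exposure, and each pool was of heads (24 samples) or of bodies, meaning thorax and abdomen (27 samples). Regime, harvest time and tissue made 18 combinations, 15 with 3 samples and 3 with 2 samples. No sucrose group was exposed for 48 h, so the length of feeding and the longer exposure to 5-aza-dC cannot be told apart in a contrast of 48 h with sucrose. They cannot be told apart in a contrast of 48 h with 24 h of 5-aza-dC either. Each sample is a pool of whole tissue, so a level is an average over all its cell types.

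DNA methylation in insects lies almost wholly at CpGs, is sparse, and in Hymenoptera falls mainly on the exons of a subset of genes, where neighbouring CpGs tend to share their state. Dnmt1 copies the mark onto the new strand after DNA replication and Dnmt3 can set it on unmethylated DNA, and Nasonia carries both enzymes. 5-aza-dC is a cytidine analogue that is built into replicating DNA and traps DNA methyltransferases there. The genome build of the table is not given in the sources used here, so no gene, exon or sequence was assigned to a cluster, and positions are those of the table.

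A mean of 5.56 to 75.9 reads covered a member in a sample (median of samples 32.1), over the 694 members with reads in all 51 samples. Samples had a background, the mean level over 753979 CpGs whose mean level was under 2%, of 0.135% to 8.34%. Background averaged 2.24% ± 2.08 after 48 h of 5-aza-dC, 1.06% ± 0.812 after 24 h and 0.608% ± 0.236 after sucrose (SD, n = 17, 16 and 18). Replicate 1 of heads harvested 48 h after the 24 h exposure and replicate 1 of bodies harvested 0 h after the 48 h exposure had the lowest coverage, at about 6 reads per member.

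Methylation on scaffolds was clustered and the clusters were short. Of 5152 methylated CpGs on scaffolds, 81.1% were members and 972 lay outside clusters, against 82.6% of methylated CpGs in clusters on chromosomes. A cluster held a median of 5 members and spanned a median of 246.5 bp, from 8 to 2675 bp. Clusters of exactly 3 members numbered 180, whereas 107 clusters of 10 or more held 36.1% of the members. Neighbouring members lay a median of 29 bp apart, and 86.4% of these spacings were 125 bp or less. The 4678 CpGs with sucrose reads inside the cluster spans were largely in 1 state, since 89.4% reached 50%, 6.95% lay at 10 to 50% and 3.70% lay under 10%. In 523 clusters (77.6%) every CpG with sucrose reads was methylated. Clusters on the same scaffold were separated by a median of 17384.5 bp, and 11.6% of the gaps were under 2000 bp. Spans held 21.1 CpGs per kb, against 15.9 per kb over all scaffolds with a cluster, whereas on chromosomes the spans held 20.2 and the chromosomes 20.9 per kb. Every span starts and ends on a CpG, which raises its density, most of all in short clusters. No higher CpG density of clusters is therefore read from these values.

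Members lay on few scaffolds, and scaffolds differed widely in their number of CpGs. Clusters occurred on 146 of 4052 scaffolds, 85 of them with a single cluster, and 3906 had none. Names starting with GL carried 93.6% of the members, names starting with ChrUn 5.36% and names starting with Ctg 1.05%. GL341022 held 623 members in 91 clusters, GL341019 held 617 in 76, GL341020 held 276 in 46, GL341044 held 264 in 46 and GL340968 held 163 in 28. Together these 5 scaffolds held 1943 members, 46.5% of all. In the same order they held 84137, 89605, 115679, 54493 and 32730 of the 1685923 CpGs with sucrose reads on scaffolds. Density also differed, at 2.48 members per 1000 CpGs with sucrose reads on scaffolds and 3.76 on chromosomes. Among the 10 scaffolds with most such CpGs, all of which had clusters, it ranged from 1.36 per 1000 on GL341024 to 7.40 on GL341022. On GL341020 it was 2.39 per 1000, under the value over all scaffolds. The short scaffold GL340839, named after its values were seen, had 88 members in 9 clusters among 2966 CpGs, or 29.7 per 1000.

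Member levels in sucrose samples averaged 84.8%, with a median of 88.8%, and 74.4% of members reached 80%. Cluster means had an SD of 7.31 percentage points, and members varied around the mean of their cluster with an SD of 10.5 points. The threshold cut through a sparse part of the range, as 231 members (5.53%) lay between 50% and 60%. The 3 members just inside it had 50.0067%, 50.022% and 50.0685%, on GL340805, GL340858 and GL340988. The 3 CpGs just outside had 49.9728%, 49.9134% and 49.8868%, on GL340812, GL340840 and GL341019.

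The 3 clusters with the most members and the 3 longest were 5 clusters, since GL341019:2678252-2680926 was in both lists with 45 members over 2675 bp. Its level in the 36 members with 24 h reads was 81.6%, 83.8% and 85.4% (lowest, median and highest sample) in 7 head samples, against 74.4%, 78.1% and 83.6% in 9 body samples of the 24 h regime. Those ranges overlapped between 81.6% and 83.6%. GL341022:927520-928583, with 33 members in 1064 bp, had 80.3%, 92.0% and 93.9% in heads against 81.3%, 84.0% and 87.9% in bodies of that regime over 28 members. The lowest head value was that of the low-coverage sample harvested at 48 h. GL340812:226506-227551, with 27 members in 1046 bp, had 81.4%, 84.3% and 89.3% in heads against 77.3%, 79.1% and 84.9% in bodies. Of the other long clusters, GL341019:3212073-3213718 (13 members, 1646 bp) had 81.0%, 91.6% and 94.5% in heads against 74.8%, 80.3% and 85.2% in bodies over 9 members, with overlap. GL340802:170689-172453 (16 members, 1765 bp) had similar ranges in both tissues, with 71.2%, 80.2% and 84.6% in heads and 71.3%, 81.0% and 86.3% in bodies over 13 members.

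Levels were lower at the outermost members of a cluster than inside it in the 24 h samples, and lower still outside. Interior members of clusters of 5 or more averaged 89.4% ± 0.433 in heads and 83.6% ± 1.16 in bodies (SD, n = 7 and 9). The outermost members averaged 86.7% ± 0.703 in heads and 80.5% ± 1.27 in bodies, and were lower than the interior ones in 16 of 16 samples, by 1.84 to 3.77 points. CpGs 1 to 50 bp outside a cluster had 20.5% ± 1.03 in heads and 17.4% ± 1.88 in bodies. The rule fixes that flanking CpGs are low, since every CpG within 500 bp of a cluster end that reached 50% in sucrose would have joined the cluster, and these levels are given as a description. Between 50 and 100 bp the level was 10.7% in heads and 9.31% in bodies, and between 100 and 250 bp it was 4.97% in heads and 4.66% in bodies. Between 250 and 500 bp it was 2.91% in both tissues, where the background of the 24 h samples averaged 1.06%. Farther out, where the rule no longer keeps methylated CpGs away, it was 4.03% in heads and 3.78% in bodies between 500 and 1000 bp, and 3.23% in heads and 3.12% in bodies between 1000 and 2000 bp.

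**Figure D1:**
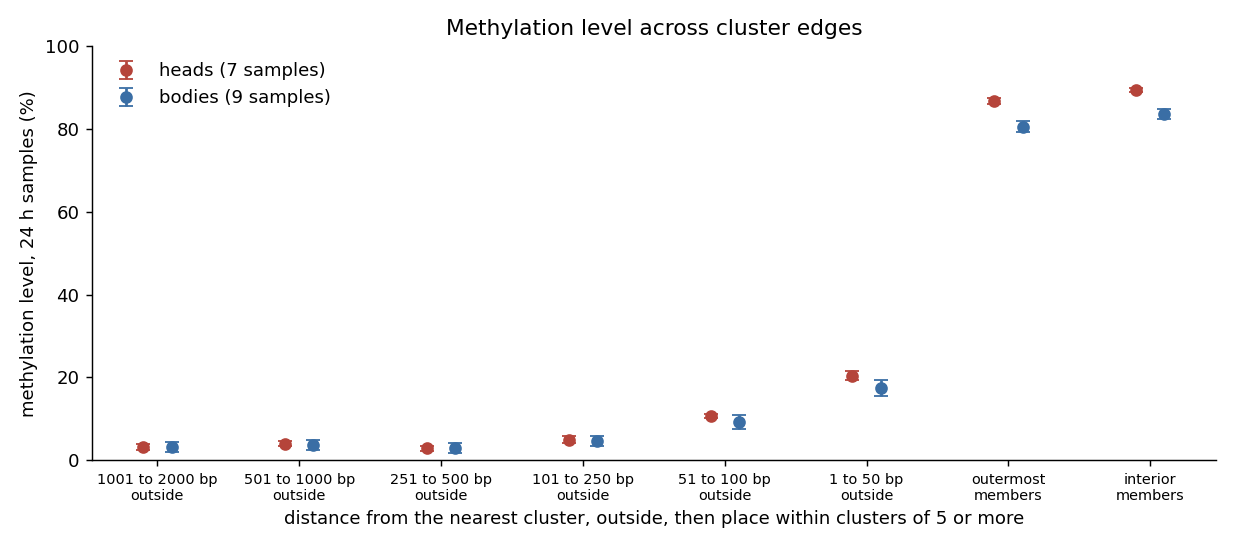
Methylation level (%) in the 24 h samples at increasing closeness to scaffold clusters, from between 1000 and 2000 bp outside to the interior members; points are means over samples and bars are SD, for 7 head samples and 9 body samples. The level stays under 5% beyond 100 bp outside a cluster and lies above 80% in its outermost and interior members, with heads above bodies inside. Within 500 bp outside a cluster the rule leaves no CpG that reached 50% in sucrose.

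Most members were still methylated in exposed wasps. Of the 4180 members, 3728 (89.2%) had reads in every 24 h sample, 1146 (27.4%) in every 48 h sample and 694 (16.6%) in all 51 samples. The deposited table gives a CpG reads in all samples of a regime or in none, so a missing member is missing from a whole regime. Why members are missing was not tested. The mean level of members with reads was 84.8% in 48 h samples and 85% in 24 h samples. A mean under 50% was found at 29 of 1146 members in 48 h samples, the lowest being 33.9%, and at 69 of 3728 members in 24 h samples, the lowest being 27.9%. Set against sucrose over the same 694 members, without a test, the mean differed by 0.338 points after 48 h and by 0.547 points after 24 h of 5-aza-dC, averaging the 6 pairs of tissue and harvest time equally. After each sample's background was subtracted, these differences were -1.32 points after 48 h and 0.0793 points after 24 h. The full background was taken off, although members are mostly methylated. Gaps in background between exposed and sucrose samples therefore enter these values, and no change of methylation after exposure is read from them.

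Heads were more methylated than bodies at scaffold clusters. The per-sample mean over the 694 members was 87.0%, 88.2% and 89.0% (lowest, median, highest) in the 15 head samples exposed to 5-aza-dC and 80.9%, 82.5% and 84.3% in the 18 exposed body samples. The tissues did not overlap, and the lowest head sample lay above the highest body sample in each regime. Heads minus bodies averaged 5.60 points over 6 strata, each a regime at 1 harvest time. This was larger than any difference reached by 100000 resamples of tissue within strata, which gives the smallest p they allow (two-sided permutation test, p = 1e-05, adjusted over 6 tests of means p = 3e-05). Exposed head samples had a mean background of 1.43% ± 0.723 and exposed body samples of 1.86% ± 2.20 (SD, n = 15 and 18), and the difference was 5.99 points with background subtracted.

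**Figure D2:**
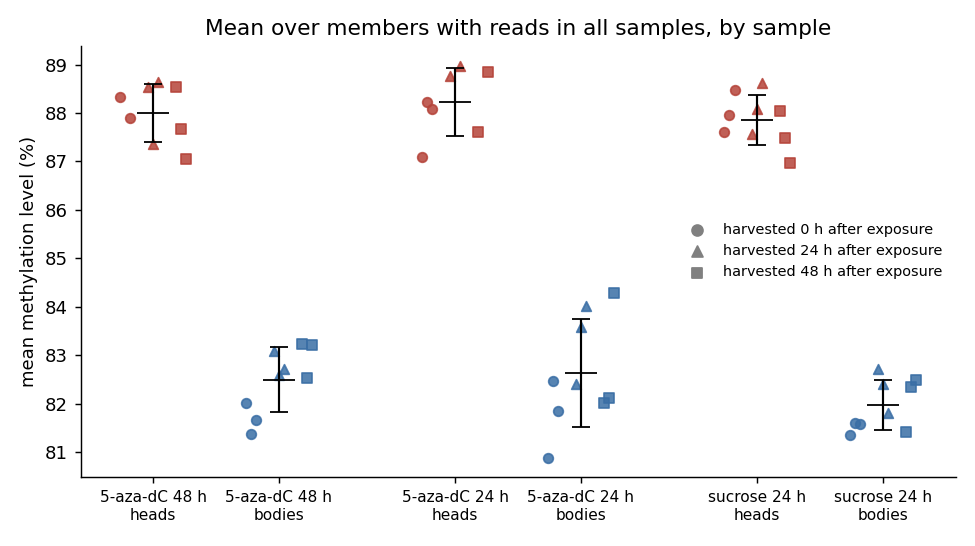
Mean methylation level (%) over the 694 members with reads in all 51 samples, 1 point per pool, by exposure regime and tissue, with marker shapes for harvest time; black lines are group means with SD, and the axis does not start at 0. Head samples lie between 87.0% and 89.0% and body samples between 80.9% and 84.3% in every regime.

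Heads exceeded bodies in each of the 3 regimes. Heads minus bodies was 5.52 points after 48 h of 5-aza-dC, 5.67 points after 24 h and, without a test, 5.90 points in sucrose. Between the 48 h and 24 h regimes it differed by -0.155 points (permutation test of regime within tissue and harvest time, p = 0.745), and that sign turned under 3 alternatives given below and without replicate 2 of heads harvested 48 h after the 24 h exposure (0.0510 points). All members with reads in a regime gave the same direction. Over 3728 members, the 24 h heads had 87.6%, 88.4% and 89.0% (lowest, median, highest) against 80.8%, 82.3% and 84.0% in bodies, a difference of 6.07 points, and no other of the 2000 arrangements of tissue within harvest time gave a larger one (exact permutation test, p = 0.0005, the smallest it allows). Over 1146 members, the 48 h heads had 86.8%, 87.9% and 88.5% against 80.9%, 82.4% and 82.9% in bodies, a difference of 5.58 points (exact permutation test over 4000 arrangements, p = 0.00025, the smallest it allows).

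Over the CpGs with reads in all 51 samples, the tissue difference was smaller at scaffold clusters than at chromosome clusters. Heads minus bodies on scaffolds differed from that on chromosomes by -0.82 points, with 5.52 points against 6.33 on chromosomes after 48 h and 5.67 against 6.50 after 24 h (two-sided permutation test of the per-sample difference, p = 1e-05, the smallest it allows, adjusted p = 3e-05). With members of at least 80% only, the 2 kinds of sequence differed by -0.13 points and the permutation test did not pass (p = 0.332). The resamples moved tissue between samples and kept the CpGs, so these p-values do not measure the spread between clusters. No difference beyond these CpGs is read from them.

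Tested one by one, all members called between tissues were higher in heads. A quasi-binomial logistic fit was made for each of 20459 CpGs with reads in all exposed samples and a mean level of at least 10% over them. Of these CpGs 4.32% were called at a Benjamini-Hochberg adjusted p under 0.05. Of the 694 members tested, 160 were called, all of them higher in heads, against 3.94% of all CpGs called higher and 0.371% called lower. On chromosomes 495 of 1595 cluster CpGs (31.0%) were called. The called members had a median difference of 10.4 points, and 110 of the 160 had the same sign in all 6 strata of regime by harvest time. Over all 694 members the median difference was 4.52 points and 621 were above 0, while the median over all CpGs tested was -0.971. The filter on mean level passed every member with reads. The count moved with the fit, to 74 with limma and to 10 of 67 testable members when values under 10 reads were left out.

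Position 22461 of GL341005 had the largest difference among called members with 1 sign throughout. Its level was 57.9%, 87.0% and 100% (lowest, median, highest) in exposed heads and 33.3%, 54.2% and 87.5% in exposed bodies, a difference of 27.8 points with overlapping ranges. At position 2167155 of GL341022 exposed heads had 50.0%, 79.6% and 100% and exposed bodies 20.0%, 56.6% and 69.4%, a difference of 26.8 points. Position 1060334 of GL340882 had 62.5%, 85.7% and 92.1% in heads against 33.3%, 56.3% and 81.0% in bodies, a difference of 26.6 points. The ranges overlapped at each of these CpGs, and the median head sample lay above the median body sample by over 20 points.

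A larger share of features was called when reads were summed over the members of a cluster. Of 777 clusters in the genome with reads in all samples, 69.5% were called between tissues, 69.1% higher in heads and 0.386% lower. On scaffolds 163 of 241 clusters were called, all higher in heads, against 377 of 536 on chromosomes. The median difference was 5.26 points over the scaffold clusters and 5.63 points over all clusters. With the 24 h samples alone, a comparison added after the data had been seen, 71.7% of 2010 clusters in the genome were called, 71.6% higher in heads and 0.0995% lower, and 439 of 656 on scaffolds, all higher in heads. With the 48 h samples alone, also added, 46.1% of 1023 clusters were called, 45.9% higher in heads and 0.196% lower, and 124 of 318 on scaffolds, 123 higher in heads and 1 lower. That 1 was ChrUn_0005:127614-128031, named after its values were seen, at the 1 of its 9 members with 48 h reads. This CpG had 29.0%, 46.4% and 67.9% (lowest, median, highest) in 48 h heads against 46.9%, 65.6% and 90.7% in bodies, while 8 members of the cluster had 78.6%, 84.6% and 87.4% in 24 h heads against 70.8%, 78.0% and 85.4% in bodies. The tissues overlapped in both, and the 2 regimes compare different CpGs of the cluster. As single CpGs, 77 of 3728 members were called in the 24 h samples alone, where 0.536% of 68054 CpGs were called, 0.532% higher in heads. Without any 1 of those samples 0 to 14 members were called, so nothing is read from that count. In the 48 h samples alone 7 of 1146 members were called, all higher in heads, where 0.0581% of 43065 CpGs were called, all of them higher.

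Among clusters called in the exposed samples, GL341005:22329-22461 combined a large difference with several CpGs. Over 4 of its 5 members, 48 h heads had 77.2%, 84.5% and 86.8% (lowest, median, highest) against 55.6%, 59.2% and 75% in bodies, and 24 h heads had 77.6%, 83.5% and 86.4% against 49.7%, 59.9% and 67.7% in bodies. The tissues did not overlap in either regime, and the difference was 22.2 points (quasi-binomial fit, adjusted p = 2.06e-13). In sucrose the same members had 73.6%, 79.2% and 85.2% in heads against 47.4%, 55.4% and 71.4% in bodies.

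The other 3 clusters with the largest differences rested on 1 or 2 CpGs with reads in all samples, and the rest of each cluster differed less. GL340852:260730-261068 differed by 26.6 points at 1 CpG, and by 9.16 points over all 5 members in the 24 h samples alone. GL341020:6959-7443 differed by 22.8 points over 2 CpGs, and by 9.72 points over 13 members in the 24 h samples. GL340968:1457671-1458316 differed by 22.8 points at 1 CpG, and by 13.3 points over 11 members in the 24 h samples. All 3 were called in both comparisons. In the last of these, 24 h heads had 73.1%, 76.6% and 82.4% against 58.0%, 65.2% and 69.4% in bodies, without overlap. The largest cluster difference in the 24 h samples alone was 30.3 points in GL340888:425067-425104, whose 3 members lie within 38 bp and had 72.9%, 83.1% and 100% in heads against 44.8%, 52.4% and 68.4% in bodies. The next were 22.8 points in GL341005:22329-22461, 19.7 points over the 3 members of GL341022:313613-313719 and 19.6 points at 1 CpG of GL340882:201448-201500.

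In points, the tissue difference was largest at members of middle level. In 24 h samples, members at 60% to 70% in sucrose had 72.2% ± 1.05 in heads and 60.4% ± 2.11 in bodies (SD, n = 7 and 9), a difference of 12.0 points. It was 9.34 points at members of 50% to 60%, 9.72 points at 70% to 80%, 6.99 points at 80% to 90%, 3.58 points at 90% to 95% and 1.95 points above 95%. A level near 100% leaves less room for a difference in points. As a ratio the order was another. The unmethylated share in bodies was 1.24 times that in heads at 50% to 60% and 1.43 times at 60% to 70%. It was 1.52 times at 70% to 80%, 1.68 times at 80% to 90% and at 90% to 95%, and 1.55 times above 95%. Members under 80% differed between tissues by 7.28 points more than members of 90% or more (exact permutation test added after the data had been seen, p = 0.0005, the smallest it allows). The limit near 100% favours this sign in points, so the test does not decide whether the 2 groups of members differ beyond it. Even above 95%, where heads averaged 96.6% ± 0.559 and bodies 94.7% ± 0.642, the lowest head sample lay above the highest body sample.

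**Figure D3:**
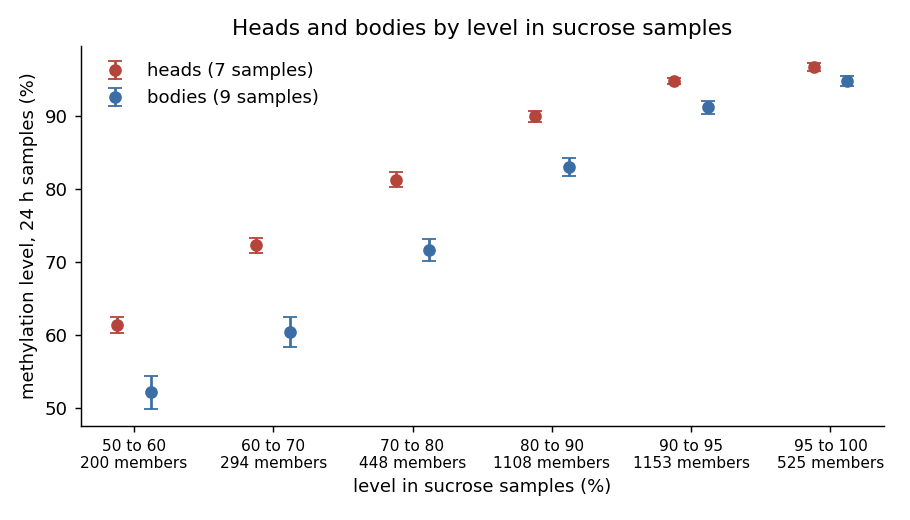
Methylation level (%) of scaffold members in the 24 h samples by their level in sucrose samples; points are means over 7 head and 9 body samples, bars are SD, and the axis does not start at 0. Heads lie above bodies in all 6 ranges, by 12.0 points at 60% to 70% and by 1.95 points above 95%.

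Most scaffolds and all 3 size classes of cluster had heads above bodies. Of the 143 scaffolds with members with 24 h reads, 135 had heads above bodies and 8 had heads below bodies, by values down to -9.83 points on ChrUn_0406. Those 8 had 1 to 11 members with 24 h reads each. On the 29 scaffolds with at least 20 members with 24 h reads, heads minus bodies ranged from 3.08 to 12.0 points with a median of 6.18. The 5 scaffolds with most members had 5.96 points on GL341022, 6.53 on GL341019, 6.31 on GL341020, 7.02 on GL341044 and 7.17 on GL340968. Members of clusters of 3 or 4 differed by 6.64 points, those of clusters of 5 to 9 by 6.38 points and those of larger clusters by 5.34 points, and these were not tested against each other.

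Tissue differences of clusters were related between the 24 h regime and sucrose. Among 327 clusters with at least 5 members with 24 h reads, 320 were above 0 in 24 h samples, 324 in sucrose samples and 317 in both, and no cluster was under 0 in both. The 24 h difference had a median of 5.62 points, and 90% of clusters lay between 0.996 and 13.6 points. Across these clusters the 24 h and sucrose differences had a Pearson r of 0.655, and across 3728 members r was 0.497. These are descriptions across sites that share samples and reads within each regime. The lowest cluster, ChrUn_0406:9983-10538, named after its values were seen, had -11.0 points in the 24 h samples over 11 members and was not called (adjusted p = 0.558), and 1.56 points in sucrose.

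**Figure D4:**
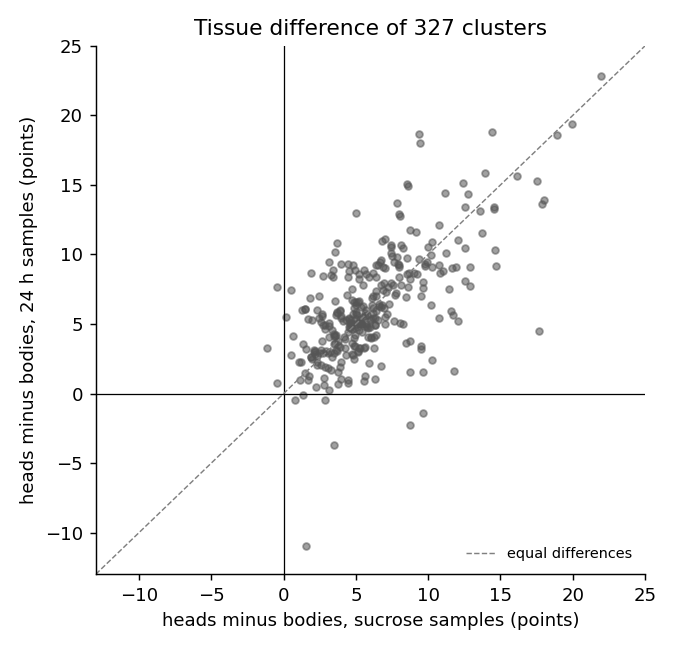
Heads minus bodies (percentage points) of 327 scaffold clusters with at least 5 members with 24 h reads, in the 24 h samples (vertical) against the sucrose samples (horizontal); each point is a cluster and the dashed line marks equal differences. The points lie mostly in the quadrant where both differences are above 0 (317 clusters), with 1 cluster at -11.0 points in the 24 h samples.

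Neighbouring members resembled each other most at short distances. In 24 h samples the tissue differences of members 1 to 25 bp apart in the same cluster had a Pearson r of 0.450 (1692 pairs), against 0.0996 above 25 and up to 125 bp, 0.161 up to 250 bp and 0.0687 up to 500 bp. Their levels had r of 0.565 at 1 to 25 bp and 0.143 above 25 and up to 125 bp. CpGs this close are often read on the same fragments, and the part of shared reads in these values was not tested.

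The mean level after 48 h and after 24 h of 5-aza-dC differed by less than the spread between samples. The per-sample mean over the 694 members was 81.4%, 83.2% and 88.6% (lowest, median, highest) in 48 h samples and 80.9%, 84.2% and 89.0% in 24 h samples, which overlapped. The 48 h minus 24 h difference within tissue and harvest time was -0.209 points (two-sided permutation test, p = 0.376, adjusted p = 0.451). Background was 2.24% ± 2.08 in 48 h and 1.06% ± 0.812 in 24 h samples, and with it subtracted the difference was -1.4 points (permutation test, p = 0.00216). Each sample's full background, measured at CpGs under 2%, was taken off, although members are mostly methylated. The gap in background between the regimes therefore enters the -1.4 points, and no lower methylation after 48 h is read from them. With members of at least 80% in sucrose and no subtraction the difference was 0.0312 points.

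Single members differed between the exposures in both directions. The length of feeding differed along with that of the exposure, so the calls cannot be assigned to 1 of them. Of the 694 members 13 were called, 6 higher and 7 lower after 48 h, where 0.689% of the 20459 CpGs tested were called, 0.44% higher and 0.249% lower. The median difference over the members was -0.00530 points, and 346 were above 0. Of the 13, 11 had 1 sign in all 6 strata of tissue by harvest time. Without the 6 samples whose title gives another harvest time or none, 4 were called, and 8 without replicate 2 of heads harvested 48 h after the 24 h exposure. By cluster, 11 of 241 were called, 6 higher and 5 lower, where 4.38% of the 777 clusters were called, 2.83% higher and 1.54% lower, and limma called 6.

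GL340882:2072590-2073163 was lower after 48 h at several neighbouring CpGs. Of its 21 members 10 had reads in all samples, and 4 of these, at positions 2072590, 2072629, 2072641 and 2072668, were called with differences of -18.4, -27.9, -28.1 and -26.0 points. At position 2072641 the level was 14.3%, 56.0% and 72.7% (lowest, median, highest) in 48 h samples, 42.9%, 77.9% and 90% in 24 h samples and 45.0%, 61.2% and 100% in sucrose samples. Over the 10 members the cluster had 58.1%, 72.9% and 83.0% in 48 h samples, 74.5%, 82.4% and 89.6% in 24 h samples and 65.5%, 75.4% and 91.9% in sucrose samples. The ranges overlapped, the sucrose median lay between those of the exposures, and the 48 h minus 24 h difference was -11.7 points (quasi-binomial fit, adjusted p = 0.000486).

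The other named clusters lower after 48 h were spread over scaffolds. GL341077:40734-40860 had 36.0%, 55.4% and 67.0% in 48 h samples, 49.3%, 69.8% and 81.2% in 24 h samples and 40.7%, 66.5% and 87.7% in sucrose samples over 3 members, a difference of -16.6 points between exposures. Its position 40755 carried -29.3 points, with 9.52%, 38.9% and 66.7% in 48 h samples against 33.3%, 63.3% and 100% in 24 h samples. GL340974:923947-924529 had 58.0%, 70.4% and 82.6% in 48 h samples and 55.6%, 81.6% and 91.8% in 24 h samples over 5 members, a difference of -9.91 points, and 60%, 72.7% and 84.6% in sucrose samples. GL340968:906260-906488 had 33.3%, 58.3% and 75% in 48 h samples against 48.0%, 71.4% and 100% in 24 h samples over 2 members, a difference of -16.0 points, and 16.7%, 59.9% and 89.6% in sucrose. That call was lost in 7 of the 33 fits without 1 sample.

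The 4 named clusters higher after 48 h rested on 1 or 2 CpGs each. Position 275345 of GL340933, the only CpG of GL340933:275345-276221 with reads in all samples, had 0%, 66.7% and 86.4% in 48 h samples, 0%, 33.3% and 60% in 24 h samples and 23.1%, 57.1% and 94.1% in sucrose samples. The exposures differed by 30.6 points there, and the 24 h samples were the lower ones also beside sucrose. Position 3737629 of GL341019, in the cluster 3736719-3737629, had 57.1%, 83.3% and 100% in 48 h samples and 33.3%, 65.2% and 100% in 24 h samples, a difference of 18.0 points. GL341019:71610-71757 differed by 17.4 points at 1 CpG and GL340941:50665-50931 by 15.7 points over 2 CpGs. Position 1953590 of GL340882, whose cluster was not among the 4, had 64.8%, 90.9% and 100% in 48 h samples and 50.0%, 74.6% and 87.3% in 24 h samples, a difference of 15.5 points. As single CpGs, positions 3737629 and 1953590 were close to the threshold (adjusted p = 0.0410 and 0.0476) and lost their calls in 22 and 26 of the 33 fits without 1 sample. Of the 8 named clusters, GL341019:3736719-3737629, GL340968:906260-906488, GL341019:71610-71757 and GL340941:50665-50931 were not called by limma. The first 2 of these and GL340974:923947-924529 were not called without the 6 samples of unclear title.

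**Figure D5:**
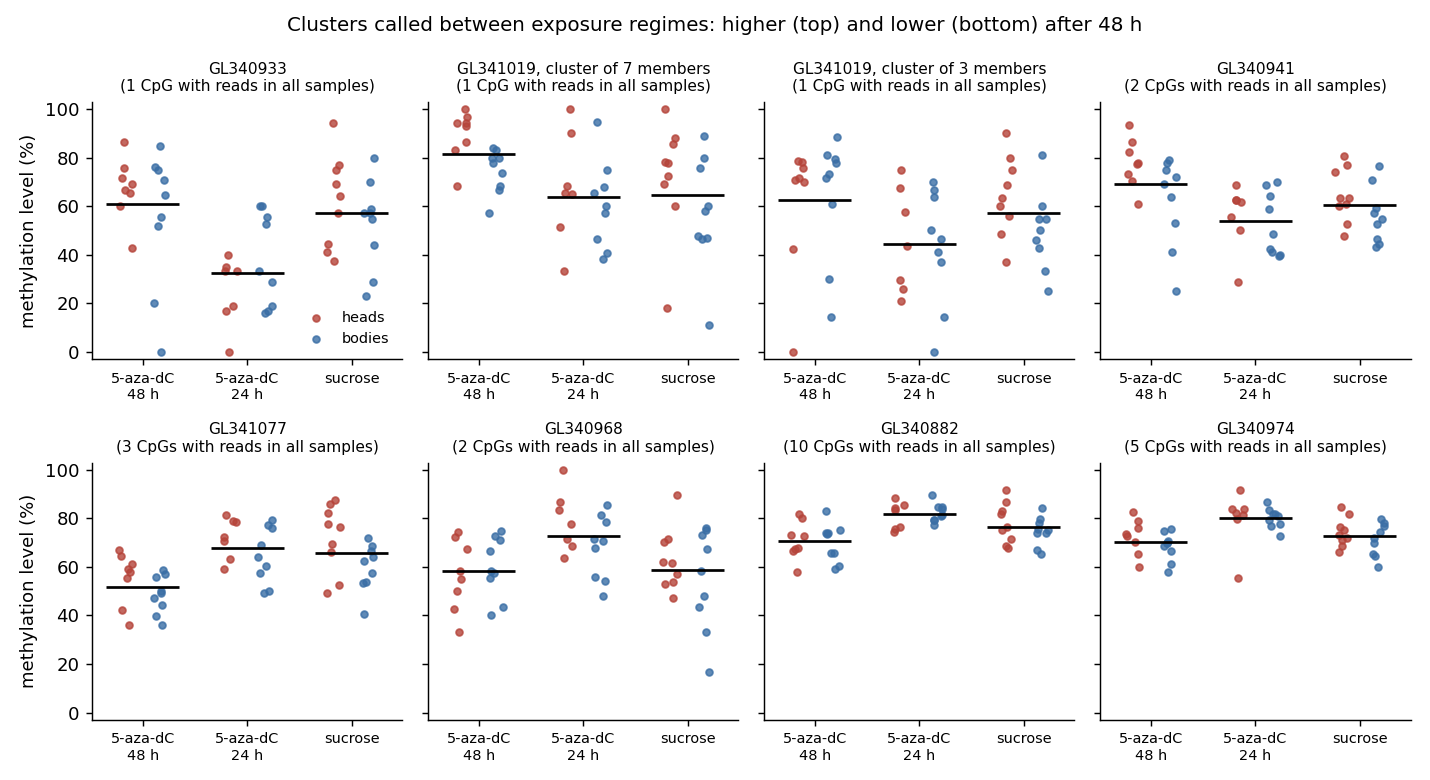
Methylation level (%) per sample of the 8 named clusters called between exposures, over the members with reads in all 51 samples, after 48 h of 5-aza-dC, 24 h of 5-aza-dC and sucrose alone; points are pools of heads or bodies and black lines are means over all samples of a regime. The ranges of the regimes overlap in every panel, and the 24 h mean lies below the 48 h mean in the top panels and above it in the bottom panels.

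The mean differed by harvest time by under 1 point, and no single member was called. For 6 of the exposed body samples the title names another harvest time than the one used here, or none, so part of the grouping by harvest time is unclear. Among exposed samples the mean over the 694 members was 80.9%, 82.5% and 88.3% (lowest, median, highest) at 0 h, 82.4%, 84.0% and 89.0% at 24 h and 82.0%, 84.3% and 88.8% at 48 h after exposure, 11 samples each. Within tissue and regime, samples at 24 h were 0.963 points higher than at 0 h (two-sided permutation test, p = 0.0022, adjusted p = 0.0044), and samples at 48 h were 0.615 points above those at 0 h (permutation test, p = 0.0726, adjusted p = 0.109), a difference that passed without replicate 1 of 24 h-exposed heads harvested at 48 h (0.769 points, p = 0.0364) or replicate 3 of 48 h-exposed heads harvested at 48 h (0.703 points, p = 0.028). Background averaged 1.21% ± 1.22 at 0 h, 1.99% ± 2.18 at 24 h and 1.80% ± 1.57 at 48 h (SD, n = 11 each), and with background subtracted the 24 h minus 0 h difference was 0.329 points (permutation test, p = 0.705). Taking off the full background also brings its gap and its spread between samples into that test. The 0.329 points therefore do not decide what part background has in the 0.963 points, which was not tested. In the fit across 20459 CpGs 0% were called for harvest time, and none of the 694 members, with 70 of them at an unadjusted p under 0.05, and limma called none either. A p that misses the threshold does not show that a member kept its level.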

How the data were processed

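The table holds, per CpG and sample, methylated and total read counts, which the authors deposited without normalization. Per the labels' protocols, bisulphite conversion used the EZ DNA Methylation kit and libraries the TruSeq DNA methylation kit, read on a HiSeq. Per the submitters' processing notes, cutadapt 1.12, Bismark 0.16, Bowtie2, SAMtools, methylKit 0.99.3 and R 3.3.1 were used; the genome build and the removal of duplicate reads are not given in the sources used here. In the deposited table a CpG has at least 3 reads in every sample of a regime or no reads in any, so coverage here is that of listed CpGs and not of libraries.

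Samples were grouped by regime, harvest time and tissue as the labels give them. For 9 body samples the title names another harvest time or none. Replicates were numbered in accession order and were not paired. The members, lists and tests were chosen with earlier results of these data known, and the comparisons within the 24 h or 48 h regime alone, the test by level and the fits without the 2 samples of lowest coverage were added after the data had been seen.

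Levels are methylated over total reads. Per-sample means over members with reads in all 51 samples were compared by two-sided permutation tests (100000 resamples within strata), or with all arrangements where a group had under 10 samples, and p-values of the 6 tests of means were adjusted by the Benjamini-Hochberg method. CpGs with reads in all 33 exposed samples and a mean of at least 10% were tested with a quasi-binomial logistic fit (F test, dispersion of at least 1). For clusters, reads were summed over members with reads in all 51 samples, without that filter on the mean. Fits of 1 regime alone instead required reads in every sample of that regime. The p-values were adjusted over all CpGs or clusters of the genome that were tested, with a threshold of 0.05. The median dispersion between pools of a combination at members was 1.50. The fit was tested on simulated data, where it missed most of the smaller changes put into single CpGs, so counts of called CpGs leave out small differences. limma 3.58.1 in R 4.3.3 on arcsine-square-root levels was an alternative; the rest used Python 3.11.15 with pandas 2.3.3, scipy 1.17.1, numpy 2.4.6 and matplotlib 3.10.9. Heads and bodies were treated as independent. Named were the 5 scaffolds with most members, the 3 clusters with most members and the 3 longest, up to 4 called clusters per direction with the largest difference, and up to 3 called CpGs per direction with 1 sign in all 6 combinations. The 4 with the largest difference in the 24 h samples alone were added.

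At 10 reads 1 read moves a level by 10 points, and counting error alone limits single CpGs in the low-coverage samples. Between 2 samples of a combination at most 1.30% of members had identical counts, and all samples were kept.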

Additional observations from a re-analysis of the deposited data

Results flagged for a closer look

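The mean over members and the named clusters made 18 items. For these, 108 groups of 7 to 9 samples of a regime and tissue were checked for a lowest or highest sample far from the others. In 5 groups there was one. Chance gives about 1 in 20 groups. All 5 were low head samples. In GL341022:927520-928583, replicate 1 of 24 h heads harvested at 48 h had 78.8%, against 92.0% in the next sample, and it is one of the 2 samples of lowest coverage. In GL341019:3212073-3213718, replicate 1 of sucrose heads harvested at 0 h had 66.7%, against 88.9%. In GL341019:3736719-3737629, replicate 3 of sucrose heads harvested at 24 h had 18.2%, against 60%. In GL341019:71610-71757, replicate 1 of 48 h heads harvested at 48 h had 0%, against 42.4%. These 3 clusters rest on 1 CpG with reads in all samples. In GL340974:923947-924529, replicate 1 of 24 h heads harvested at 0 h had 55.6%, against 79.7%, over 5 CpGs.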

How the results depend on the processing

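The difference of heads minus bodies over members kept its sign and its call under every alternative run, from 4.64 to 5.99 points, and without any 1 sample it was 5.49 to 5.72. The 48 h minus 24 h difference was -1.4 points with background subtracted (permutation test, p = 0.00216), 0.0312 with members of at least 80%, and -0.312 to -0.0852 without 1 sample. The 24 h minus 0 h harvest difference was 0.329 points with background subtracted (permutation test, p = 0.705) and 0.857 to 1.08 without 1 sample. The 48 h minus 0 h difference was 0.811 points without the 2 samples of lowest coverage (permutation test, p = 0.0348) and 0.429 to 0.769 without 1 sample. The change of the tissue difference between exposures was 0.918 points with background subtracted, 0.416 without the samples of unclear title, 0.0915 with members of at least 80%, and -0.402 to 0.0510 without 1 sample. The scaffold minus chromosome difference was -0.13 points with members of at least 80%. In the values with background subtracted each sample's full background was taken off, so differences in background enter them and no change of level is read from them.

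Members called for tissue numbered 74 with limma, 10 of 67 tested at 10 reads, 296 and 58 with CpGs of a mean of at least 50% or 2% tested, and 116 to 161 without 1 sample. Members called for regime numbered 0 at 10 reads, 20 with a mean of at least 50%, 4 without the samples of unclear title and 8 to 16 without 1 sample. Fewer CpGs enter the fit at 10 reads or a mean of 50%. Clusters called for tissue numbered 99 at 10 reads and 151 to 169 without 1 sample, and clusters called for regime 6 with limma, 7 without the samples of unclear title and 8 to 14 without 1 sample. In the 24 h samples alone 77 members were called for tissue, 4 with limma, 0 without the samples of unclear title and 0 to 14 without 1 sample, while clusters called there numbered 369 to 430 without 1 sample. The regime difference of GL341022:927520-928583, not called, was -1.0 points without the 2 samples of lowest coverage and -0.568 to 1.79 without 1 sample. Where a call or sign moved, the cause was not tested. No paired analysis was made, because it is not given whether head and body pools came from the same females. Replicate numbers follow accession order. Fewest members could be followed in the 48 h samples, where 27.4% had reads in every sample.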
